A study of Mus musculus with 6 samples.

Results

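The 9 claudin genes Cldn1, Cldn2, Cldn3, Cldn4, Cldn7, Cldn8, Cldn10, Cldn16 and Cldn19 were examined in bulk RNA of mouse kidneys. They were chosen by gene name as the claudins typical of particular nephron segments, and all 9 were found among the 17550 genes of the table. There were 3 KC-Tie2 and 3 Control libraries. KC-Tie2 mice carry a Tie2 receptor transgene driven in skin keratinocytes and develop a psoriasis-like skin disease, so the kidney itself is not the targeted tissue. Kidneys of both genotypes were perfused with saline before RNA extraction, and libraries were poly(A)-selected. Genotype is the only difference between the groups that the labels name. Strain, age and sex are not stated, nor whether each sample came from a separate animal. P-values therefore measure the spread between these samples.

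Claudins are membrane proteins with 4 transmembrane segments that form the strands of tight junctions between epithelial cells. Some seal the gap between cells and others form selective pores, and each nephron segment expresses its own combination, which sets how much sodium, chloride, calcium, magnesium and water passes between the cells. Cldn2 forms cation and water pores in the proximal tubule. Cldn10 is made as isoforms with different first exons, one typical of the proximal tubule and one of the thick ascending limb. Cldn16 and Cldn19 are partners in the thick limb that are needed to reabsorb calcium and magnesium. Cldn3, Cldn4, Cldn7 and Cldn8 are claudins of the distal nephron and collecting duct. Cldn1 marks the parietal epithelium of Bowman's capsule.

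The promoters of 5 of these genes are shown because their genes carry the comparisons that follow: the most abundant claudin (Cldn2), the thick limb partners (Cldn16 and Cldn19) and the neighbouring collecting duct genes (Cldn3 and Cldn4). Each sequence runs 5′ to 3′ on the gene's strand, from 250 bases before to 50 bases after the RefSeq start on the build GRCm38.p6. Capitals mark matches to 4 motifs searched on both strands. TATAAA is a form of the TATA box. The E-box read by Snail repressors was searched as CACCTG. For the GC box the letters were GGGCGG. Part of an HNF1 site was searched as GTTAAT. No 2 matches overlapped in these windows.
Cldn2, chrX:139800558-139800857, + strand: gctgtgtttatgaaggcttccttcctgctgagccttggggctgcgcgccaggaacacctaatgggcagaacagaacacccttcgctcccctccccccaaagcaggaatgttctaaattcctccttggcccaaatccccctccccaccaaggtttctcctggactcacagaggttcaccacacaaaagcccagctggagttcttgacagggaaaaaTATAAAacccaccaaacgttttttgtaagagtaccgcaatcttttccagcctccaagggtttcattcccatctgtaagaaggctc
Cldn16, chr16:26462885-26463184, + strand: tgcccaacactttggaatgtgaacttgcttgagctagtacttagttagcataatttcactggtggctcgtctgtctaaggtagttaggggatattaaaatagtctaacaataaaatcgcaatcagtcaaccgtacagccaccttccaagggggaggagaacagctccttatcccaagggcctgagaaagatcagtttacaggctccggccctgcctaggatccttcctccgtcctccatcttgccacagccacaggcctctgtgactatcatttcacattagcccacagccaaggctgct
Cldn19, chr4:119255191-119255490, + strand, the upstream of 2 listed starts: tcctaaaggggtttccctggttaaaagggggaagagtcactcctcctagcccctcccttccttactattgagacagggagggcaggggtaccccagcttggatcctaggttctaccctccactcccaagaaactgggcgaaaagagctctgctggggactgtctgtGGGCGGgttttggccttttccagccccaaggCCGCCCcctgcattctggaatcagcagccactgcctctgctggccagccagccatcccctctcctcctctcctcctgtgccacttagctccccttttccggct
Cldn3, chr5:134985964-134986263, + strand: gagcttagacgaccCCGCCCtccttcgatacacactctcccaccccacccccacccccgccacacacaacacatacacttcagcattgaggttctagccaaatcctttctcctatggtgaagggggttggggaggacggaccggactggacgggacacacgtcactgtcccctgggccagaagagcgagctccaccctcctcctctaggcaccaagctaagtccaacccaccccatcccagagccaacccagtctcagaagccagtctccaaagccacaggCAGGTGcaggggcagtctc
Cldn4, chr5:134946885-134947184, - strand: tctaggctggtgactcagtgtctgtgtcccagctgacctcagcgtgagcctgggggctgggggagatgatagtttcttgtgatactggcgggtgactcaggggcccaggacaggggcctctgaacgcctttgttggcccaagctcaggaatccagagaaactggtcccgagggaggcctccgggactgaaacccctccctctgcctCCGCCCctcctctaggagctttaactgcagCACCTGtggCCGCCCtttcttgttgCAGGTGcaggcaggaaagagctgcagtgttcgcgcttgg

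The Cldn2 window held 1 TATAAA match, a motif found in 13.6% of the 32851 RefSeq windows of this length. Cldn4 held 2 CACCTG and 2 GGGCGG matches, and Cldn3 held 1 of each. CACCTG was present in 20.2% and GGGCGG in 35.7% of all windows. Cldn19 held 2 GGGCGG matches, whereas Cldn16 held none of the 4 motifs. GTTAAT, present in 7.1% of all windows, was in none of the 5 windows printed. The partner genes also differed in base composition, with 48.7% G and C in the Cldn16 window and 59.3% in that of Cldn19 (median of all windows 52.7%). Of the 9 claudins, 8 had a RefSeq window, Cldn8 being the exception.

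The table held normalized counts. They summed to between 23647811 and 25155944 in the KC-Tie2 and between 24288853 and 25495455 in the Control libraries. By the spacing of low values, which approximates 1 read, the lowest claudin of each library had about 84 to 115 counts in the KC-Tie2 and 89 to 112 in the Control libraries. All 9 claudins passed the filter on low values, which required an average of 10 or more normalized counts. Tek, the mouse gene for Tie2, had 933.7, 932.8 and 976.2 in KC-Tie2 and 1073, 1081 and 989 in Control kidneys (limma adjusted p = 0.361). The transgene is a skin transgene, so this value does not check the labels.

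None of the 9 claudins was called different between KC-Tie2 and Control kidneys at an adjusted p under 0.05 (limma with Benjamini-Hochberg adjustment over 17539 genes), against 1.69% of all genes tested. One of the 9, Cldn7, had an unadjusted p under 0.05 (0.0444), against 15.3% of all genes. The 3 KC-Tie2 libraries overlapped the 3 Control libraries at every one of the 9, whereas 20.0% of all genes tested had groups that did not overlap. In the authors' deposited table, too, no claudin of the 9 had an FDR under 0.05, against 3.91% of its genes, and the lowest was that of Cldn19 (0.462). The log2 fold changes of the 9, KC-Tie2 minus Control on the log2(value + 1) scale, ran from -0.12 (Cldn16) to 0.30 (Cldn7), with 4 above and 5 below 0. Their median was -0.001, beside 0.00 for all genes tested. The 95% intervals were taken gene by gene, without adjustment, from the spread between these samples. For Cldn1, Cldn2, Cldn3, Cldn8, Cldn10 and Cldn16 they lay between 0.697-fold and 1.25-fold. They reached up to 1.42-fold for Cldn19 and 1.51-fold for Cldn7. The interval was widest for Cldn4, from 0.738-fold to 1.82-fold.

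**Figure D1:**
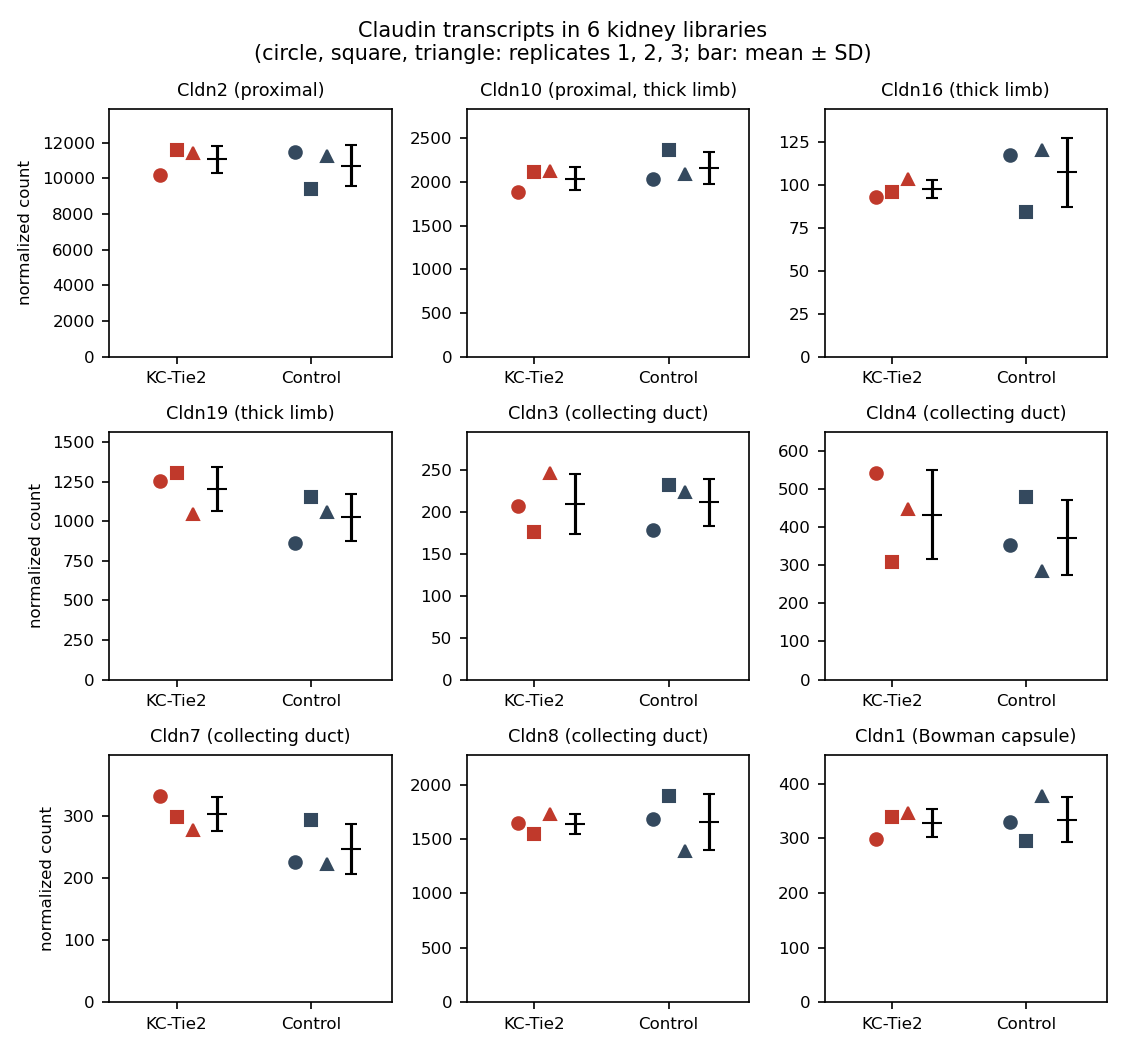
Normalized counts of the 9 claudin genes in each library, KC-Tie2 in red and Control in blue, with the mean ± SD of 3 libraries in black; every vertical axis starts at 0. In all 9 panels the KC-Tie2 points overlap the Control points, and Cldn4 has the widest spread within a genotype.

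Of the proximal tubule claudins, Cldn2 and Cldn10, neither passed the test. Cldn2 (ENSMUSG00000047230, chromosome X, 138701577 to 138712135, + strand, build mm39) had 10192, 11581 and 11395 in KC-Tie2 and 11483, 9388 and 11228 in Control kidneys. The lowest value was that of Control replicate 2, followed by that of KC-Tie2 replicate 1. Cldn2 averaged 11056 ± 754 in KC-Tie2 and 10700 ± 1143 in Control kidneys (SD, n = 3 each), a ratio of 1.04-fold with a 95% interval of 0.902 to 1.19 (limma adjusted p = 0.854). Cldn10 (ENSMUSG00000022132, chromosome 14, 119025320 to 119112901, + strand) had 1881, 2112 and 2120 in KC-Tie2 and 2030, 2363 and 2084 in Control kidneys. The groups overlapped, with KC-Tie2 replicate 1 lowest and Control replicate 2 highest. The Cldn10 ratio was 0.945-fold, with a 95% interval of 0.838 to 1.06 (limma adjusted p = 0.693). The table gives Cldn10 as a single gene, so its proximal and thick limb isoforms were summed and could not be separated.

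Per kilobase of the longest coding transcript in GENCODE M21, Cldn2 was the most abundant of the 9. The normalized count per kilobase of Cldn2 was 3632 ± 248 in KC-Tie2 and 3515 ± 376 in Control kidneys (SD, n = 3 each). Cldn10 followed with 958 ± 63.9 per kilobase in KC-Tie2 and 1014 ± 84 in Control kidneys, and Cldn8 with 697 ± 39.1 in KC-Tie2 and 702 ± 109 in Control kidneys. Below them on this per-kilobase scale came Cldn19 with 288 ± 32.9 in KC-Tie2 and 246 ± 35.9 in Control kidneys, Cldn4 with 238 ± 64.4 in KC-Tie2 and 205 ± 54.4 in Control kidneys, and Cldn7 with 227 ± 20.6 in KC-Tie2 and 186 ± 30.1 in Control kidneys. The SD ranges of the neighbours Cldn19 and Cldn4, and of Cldn4 and Cldn7, overlapped in both genotypes. Cldn3 had 166 ± 28.2 per kilobase in KC-Tie2 and 168 ± 22.5 in Control kidneys, and Cldn1 had 101 ± 7.9 in KC-Tie2 and 103 ± 12.8 in Control kidneys. Places in this order depend on the transcript for the 4 claudins with several coding transcripts. With its shortest, of 924 bases, Cldn19 reached 1300 ± 149 per kilobase in KC-Tie2 and 1108 ± 162 in Control kidneys, above Cldn8. Cldn7 reached 457 ± 41.5 per kilobase in KC-Tie2 and 373 ± 60.4 in Control kidneys with its shortest, above Cldn4 and above Cldn19 with its longest. Cldn10 reached 1977 ± 132 in KC-Tie2 and 2094 ± 173 in Control kidneys, still below Cldn2. Cldn16 was lowest with its longest transcript, at 83.1 ± 4.5 per kilobase in KC-Tie2 and 91.6 ± 17.2 in Control kidneys, but with its shortest it had 103 ± 5.56 in KC-Tie2 and 113 ± 21.2 in Control kidneys. Cldn16 and Cldn1 therefore have no settled order at the low end, and their SD ranges overlapped in Control kidneys with either transcript.

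In the thick ascending limb, the partners Cldn16 and Cldn19 had fold changes on opposite sides of 0, neither of them called. Cldn16 (ENSMUSG00000038148, chromosome 16, 26281885 to 26301515, + strand) had 93.26, 95.86 and 103.4 in KC-Tie2 and 117.7, 84.24 and 120.4 in Control kidneys. The KC-Tie2 libraries lay within the range of the Control libraries, whose replicate 2 was the lowest of all. The Cldn16 ratio was 0.919-fold, with a 95% interval of 0.697 to 1.21 (limma adjusted p = 0.821). Cldn19 (ENSMUSG00000066058, chromosome 4, 119112611 to 119119635, + strand) had 1255, 1304 and 1045 in KC-Tie2 and 859.3, 1153 and 1058 in Control kidneys. KC-Tie2 replicates 1 and 2 were the highest of the 6 libraries, and KC-Tie2 replicate 3 lay among the Control values. The Cldn19 ratio was 1.18-fold, with a 95% interval of 0.977 to 1.42 (limma adjusted p = 0.396). Within each library, log2 Cldn16 minus log2 Cldn19 was -3.74, -3.75 and -3.32 in KC-Tie2 and -2.86, -3.76 and -3.12 in Control kidneys. Control replicate 2 had the lowest of these differences, so the 2 genotypes overlapped in the balance of the partners as well.

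The 4 collecting duct claudins held both the largest fold change of the 9, that of Cldn7, and the one nearest to 1, that of Cldn8, and none was called. Cldn7 (ENSMUSG00000018569, chromosome 11, 69855605 to 69858711, + strand) had 333.1, 299.3 and 278.5 in KC-Tie2 and 225.9, 294 and 223.2 in Control kidneys. Only Control replicate 2 reached the KC-Tie2 range. The Cldn7 ratio was 1.23-fold, with a 95% interval of 1.01 to 1.51 before adjustment (limma adjusted p = 0.31). Cldn8 (ENSMUSG00000050520, chromosome 16, 88357716 to 88360071, - strand), which takes part in the paracellular chloride path, had 1644, 1548 and 1732 in KC-Tie2 and 1681, 1896 and 1387 in Control kidneys. Both the highest and the lowest value were Control values. The Cldn8 ratio was 0.999-fold, with a 95% interval of 0.852 to 1.17 (limma adjusted p = 0.998).

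Cldn3 and Cldn4 are neighbours on chromosome 5 and differed in how they varied between libraries. Cldn3 (ENSMUSG00000070473, 135015068 to 135016326, + strand), mostly a sealing claudin, had 206.5, 175.1 and 245.9 in KC-Tie2 and 178.6, 231.2 and 223.2 in Control kidneys. The groups overlapped, with a ratio of 0.988-fold and a 95% interval of 0.781 to 1.25 (limma adjusted p = 0.975). Cldn4 (ENSMUSG00000047501, 134973973 to 134975788, - strand), a partner of Cldn8 in the chloride path, had 541.8, 309.3 and 447.3 in KC-Tie2 and 354, 479 and 284.1 in Control kidneys. The spread within a genotype exceeded the difference between genotypes: the coefficient of variation was 27% in KC-Tie2 and 26.5% in Control kidneys, against 5.61% to 17% in KC-Tie2 and 13.4% to 16.2% in Control kidneys for the other 3 collecting duct claudins. The Cldn4 ratio was 1.16-fold (limma adjusted p = 0.788). Cldn1 (ENSMUSG00000022512, chromosome 16, 26175392 to 26190591, - strand), a barrier-forming claudin, had 298.7, 338.4 and 346.6 in KC-Tie2 and 329.9, 294.8 and 377.5 in Control kidneys. Control replicates held both the highest and the lowest value, and the ratio was 0.985-fold with a 95% interval of 0.824 to 1.18 (limma adjusted p = 0.954).

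**Figure D2:**
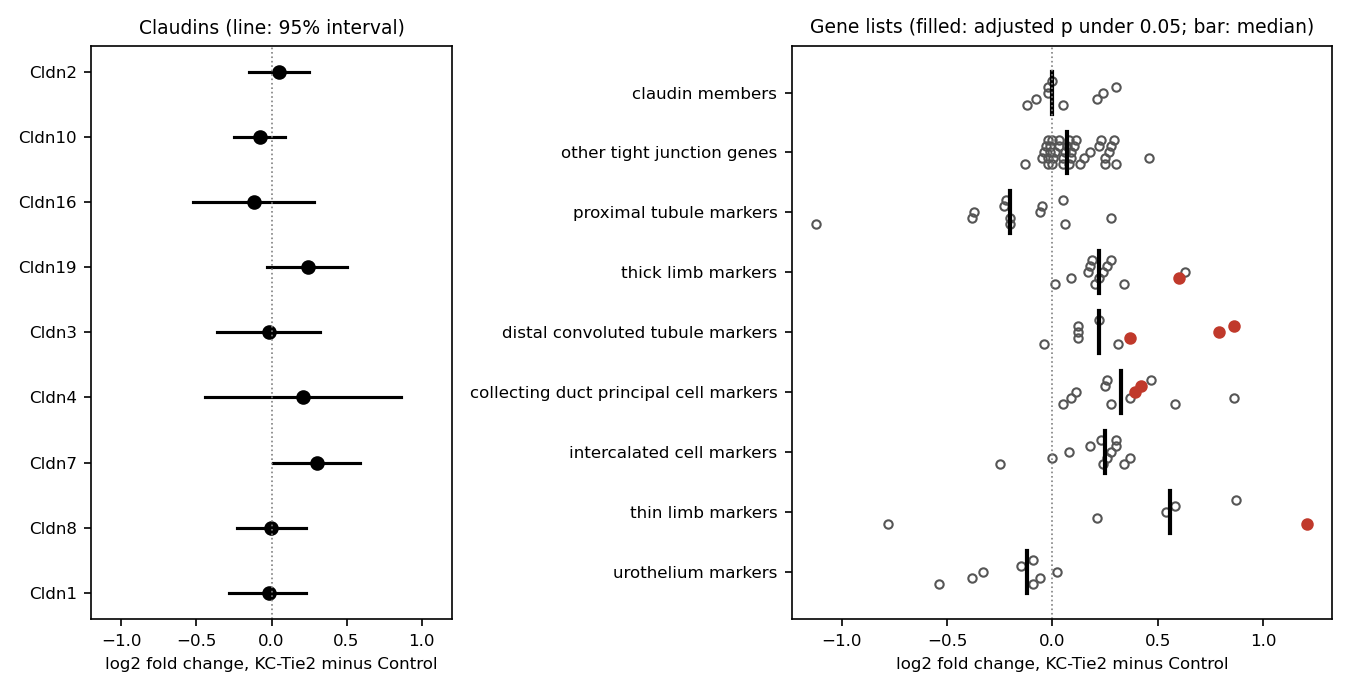
Log2 fold changes, KC-Tie2 minus Control. Left, the 9 claudins with their 95% intervals; right, every tested gene of 9 lists (open circles, filled red where the adjusted p was under 0.05, black bar at the list median). The claudin list is centred on 0, while proximal tubule markers lie mostly below and thick limb and collecting duct markers mostly above it.

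In the same kidneys, some markers of the distal segments rose. In bulk tissue, fewer cells of a segment and less RNA per cell cannot be told apart. Of 12 collecting duct principal cell markers all had a log2 fold change above 0, with a median of 0.32. Among them 2 rose, the sodium channel subunits Scnn1a (log2 fold change 0.39 ± 0.07 SE, limma adjusted p = 0.021) and Scnn1b (0.42 ± 0.09, limma adjusted p = 0.0444), where 0.855% of all genes tested rose. All 13 thick limb markers were above 0, with a median of 0.22, and 1 rose, Sostdc1, a secreted BMP antagonist (0.60 ± 0.09, limma adjusted p = 0.0143). Of 12 proximal tubule markers 9 were below 0, with a median of -0.20, and none was called. An unadjusted p under 0.05 was reached by 7 of them, against 15.3% of all genes tested. The lowest p-values among the proximal markers were those of the organic anion transporters Slc22a8 (log2 fold change -0.38, limma adjusted p = 0.0649) and Slc22a6 (-0.37, limma adjusted p = 0.119). Slc5a12 came next and went the other way (0.28, limma adjusted p = 0.123), with all KC-Tie2 libraries above all Control libraries. Distal convoluted tubule markers had 3 risen members of 9, the calcium-handling genes Calb1 (0.86 ± 0.12, limma adjusted p = 0.0106) and Trpv5 (0.79 ± 0.13, limma adjusted p = 0.0158) and the magnesium channel Trpm6 (0.37 ± 0.07, limma adjusted p = 0.0309). Fst, an activin-binding protein, rose among 6 thin limb markers (1.21 ± 0.21, limma adjusted p = 0.021), and none of 12 intercalated cell or 10 parietal epithelium and podocyte markers was called, with 8 and 7 of them at an unadjusted p under 0.05. The lowest p-values were those of Insrr (0.26, limma adjusted p = 0.136) and the proton pump subunit Atp6v1g3 (0.30, limma adjusted p = 0.145) among intercalated cell markers. Kit, 1 of the 8 and the only intercalated cell marker below 0, went the other way (-0.25, limma adjusted p = 0.153). Its KC-Tie2 libraries all lay below its Control libraries. Among podocyte markers, the slit diaphragm gene Nphs1 had a log2 fold change of 0.34 (limma adjusted p = 0.128). The number of the 74 tested segment markers called, 7 with all libraries, was 1, 1 and 21 without KC-Tie2 replicates 1, 2 and 3, and 2, 11 and 3 without Control replicates 1, 2 and 3. Without the KC-Tie2 and the Control library lowest in uroplakins, an alternative chosen after seeing the data, none was called, with all 7 log2 fold changes still above 0 (21 at an unadjusted p under 0.05, limma). In the authors' deposited table an FDR under 0.05 was reached by 4 of 12 collecting duct, 3 of 13 thick limb, 3 of 12 proximal tubule, 4 of 9 distal convoluted tubule, 3 of 6 thin limb, none of 12 intercalated cell and 1 of 10 parietal epithelium and podocyte markers. Over all genes of that table the share was 3.91%.

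Set against the markers of its own segment, no claudin passed the test, and with this design none could. In 3 of 10 pairs of claudin and marker list the genotypes did not overlap, beside 20.0% of all genes tested singly. Pairs that share a claudin or a marker list are not independent. Each pair was measured in each library as log2 of the claudin minus the mean log2 of the markers. With 3 libraries per genotype a two-sided exact permutation test cannot go below p = 0.1. The Cldn2 value relative to proximal tubule markers was -0.75, -0.71 and -0.81 in KC-Tie2 and -0.91, -1.15 and -0.97 in Control kidneys. All KC-Tie2 libraries lay above all Control libraries, with a difference of 0.25 (exact permutation p = 0.1, 0.333 adjusted over the 10 pairs). The Cldn8 value relative to collecting duct markers was -0.04, 0.01 and 0.27 in KC-Tie2 and 0.46, 0.45 and 0.38 in Control kidneys. All KC-Tie2 libraries lay below all Control libraries, with a difference of -0.35 (exact permutation p = 0.1, 0.333 adjusted). The Cldn10 value relative to thick limb markers was -0.66, -0.61 and -0.41 in KC-Tie2 and -0.23, -0.15 and -0.26 in Control kidneys, a difference of -0.34, again without overlap (exact permutation p = 0.1, 0.333 adjusted). Cldn10 here sums its proximal and thick limb isoforms, so it is not a thick limb value alone. Relative to proximal tubule markers, by contrast, Cldn10 overlapped between the genotypes (difference 0.12, exact permutation p = 0.4). A relative value combines the claudin and its markers, and the markers' own changes enter it. The log2 fold changes of the claudins alone were 0.05 for Cldn2, -0.001 for Cldn8 and -0.08 for Cldn10. The median log2 fold changes of the markers were -0.20 (proximal tubule), 0.32 (collecting duct) and 0.22 (thick limb). In the 3 pairs without overlap, most of the difference was therefore that of the markers and not of the claudin.

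The other 7 pairs overlapped between genotypes. Cldn19 relative to thick limb markers was -1.32 ± 0.10 in KC-Tie2 and -1.30 ± 0.15 in Control kidneys (SD, n = 3 each). Cldn16 relative to the same markers was -4.93 ± 0.15 in KC-Tie2 and -4.54 ± 0.35 in Control kidneys, a difference of -0.38 (exact permutation p = 0.2). Cldn7 relative to collecting duct markers was -2.35 ± 0.01 in KC-Tie2 and -2.31 ± 0.11 in Control kidneys. Cldn3 relative to the same markers was -2.90 ± 0.31 in KC-Tie2 and -2.53 ± 0.26 in Control kidneys (exact permutation p = 0.3), and Cldn4 differed by -0.13 (exact permutation p = 0.8). Cldn1 relative to parietal epithelium and podocyte markers differed by -0.26 (exact permutation p = 0.3). With the median in place of the mean of the markers, only the Cldn2 pair was still without overlap. The differences were then 0.28 for Cldn2, -0.39 for Cldn10 against thick limb markers and -0.32 for Cldn8, each near its value with the mean (exact permutation p = 0.1, 0.2 and 0.2).

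**Figure D3:**
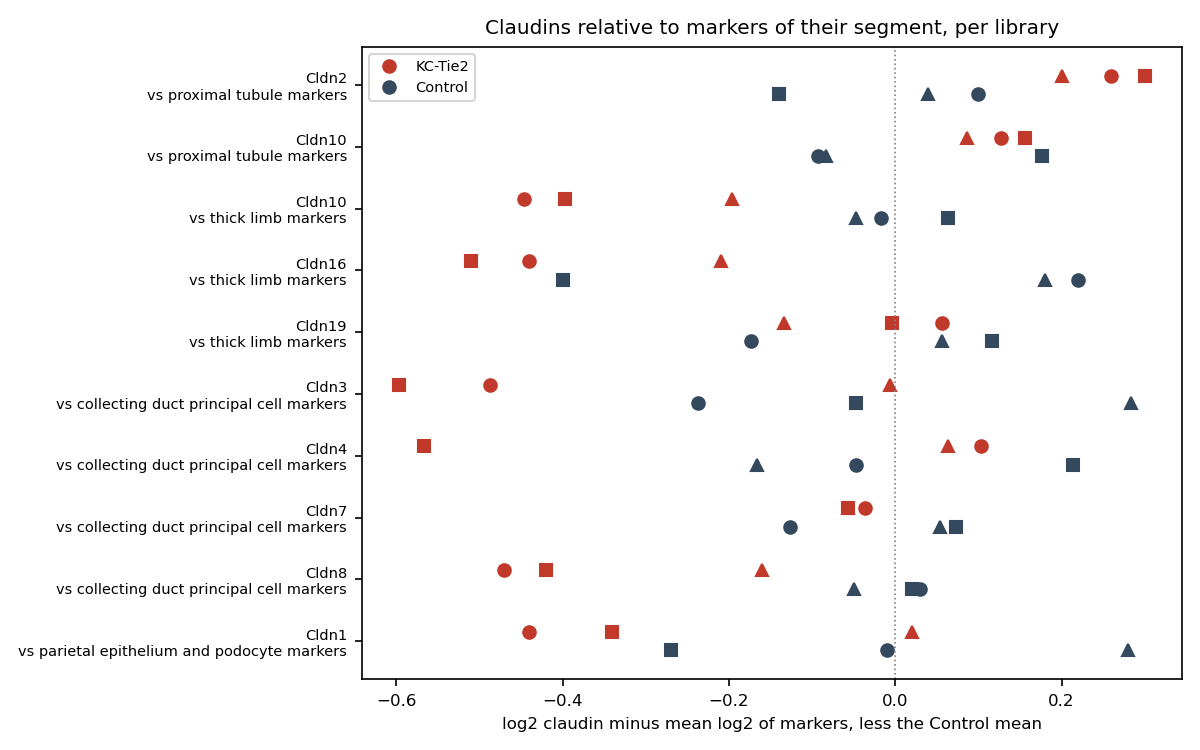
For each claudin and marker list, log2 of the claudin minus the mean log2 of the markers in each library, shifted so that the Control mean is 0 (KC-Tie2 in red above, Control in blue below; circle, square and triangle are replicates 1, 2 and 3). Cldn2 lies above, and Cldn8 and Cldn10 against thick limb markers below, all Control libraries; the other 7 pairs overlap.

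The libraries also differed in uroplakin transcripts, within each genotype. Uroplakins, the membrane proteins of the urothelium that lines the renal pelvis, summed over 5 genes to 536.3, 180.9 and 383.8 in KC-Tie2 and 476.9, 767.2 and 162.4 in Control kidneys. Of 8 tested urothelium markers none was called or had an unadjusted p under 0.05 (limma), and their total ran from 262.6 to 1216 in KC-Tie2 and from 285.5 to 1511 in Control kidneys. The lowest p-values were those of the uroplakins Upk1a (-0.54, limma adjusted p = 0.793) and Upk1b (-0.33, limma adjusted p = 0.907). KC-Tie2 replicate 2 and Control replicate 3 were the lowest of their genotypes in uroplakins, and these same libraries were the lowest of their genotypes in Cldn4 and in Cldn8. Within each genotype, the order of the 3 libraries by uroplakins was also their order by Cldn4. Cldn1 ran the other way, lowest in the library richest in uroplakins in both genotypes. With both uroplakin-poor libraries left out, the log2 fold change was 0.26 for Cldn4 (limma adjusted p = 0.8) and -0.08 for Cldn8 (limma adjusted p = 0.918), and no claudin was called. The relative difference of Cldn8 against collecting duct markers was then -0.34, and that of Cldn2 against proximal tubule markers 0.25. The part of urothelium in the spread of Cldn4 was not tested.

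**Figure D4:**
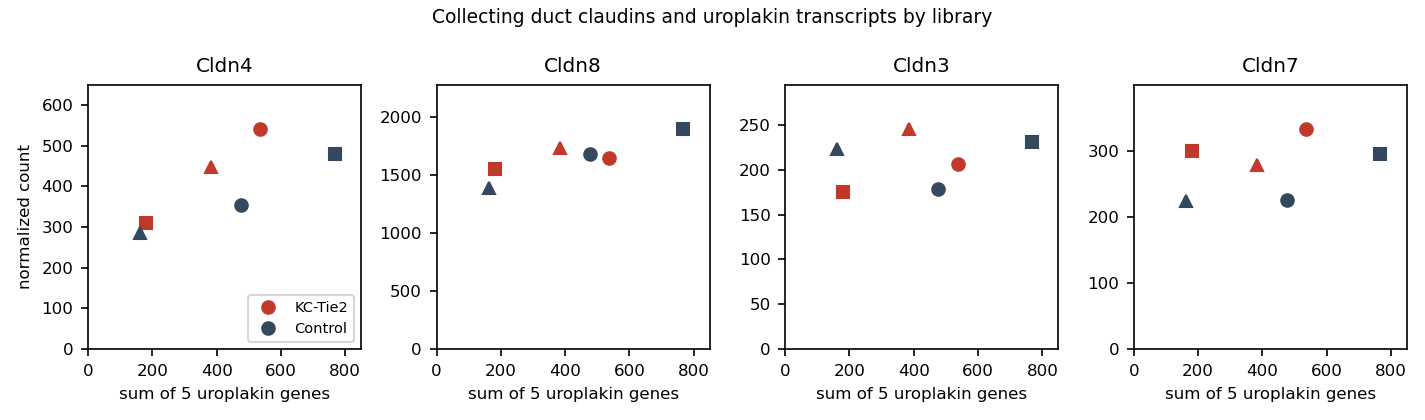
Normalized counts of 4 collecting duct claudins (vertical axes, from 0) against the summed normalized counts of 5 uroplakin genes (horizontal axes) in each library, KC-Tie2 in red and Control in blue, replicates 1, 2 and 3 as circle, square and triangle. Cldn4 and Cldn8 are lowest in the 2 libraries with the fewest uroplakin transcripts.

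Of 23 further names of the family, 6 were tested and none was called: Cldn5 of the endothelium, Cldn11, Cldn12, Cldn15, Cldn34c1 and the claudin-domain gene Cldnd1. The other 17 are not analysed here. Cldnd1 had 424.1, 416.8 and 421 in KC-Tie2 and 513.7, 448.5 and 497.9 in Control kidneys. It alone of the 6 had groups that did not overlap, with a ratio of 0.866-fold (limma adjusted p = 0.293). Cldn11 had the widest spread, with 86.6, 5.835 and 47.18 in KC-Tie2 and 46.22, 58.64 and 2.706 in Control kidneys. Its values were lowest in the same uroplakin-poor libraries, KC-Tie2 replicate 2 and Control replicate 3. Ratios of Cldn5, Cldn12, Cldn15 and Cldn34c1 were 1.14-fold, 0.94-fold, 1.12-fold and 0.91-fold, with limma adjusted p-values of 0.645 to 0.854.

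No other tight junction gene was called by limma with all libraries, and 1, Lnx1, had an FDR under 0.05 in the authors' deposited table. Of 37 tested genes for scaffolds, polarity proteins and other junction membrane proteins, 26 had a log2 fold change above 0 (50.3% of all genes tested did). None of the 37 was called by limma, and 6 had an unadjusted p under 0.05, against 15.3% of all genes. The median was 0.07, beside 0.00 for all genes tested. In 8 of the 37 the KC-Tie2 libraries lay entirely above the Control libraries, and in none entirely below, where 9.96% of all genes lay above. Lnx1, a ubiquitin ligase, had 325.2, 337.8 and 309.7 in KC-Tie2 and 240.9, 237.8 and 228.2 in Control kidneys. The groups were well apart, at 1.37-fold with a log2 fold change of 0.46 ± 0.10 (SE), and the limma adjusted p was 0.0509, just outside the threshold. The FDR of Lnx1 in the authors' deposited table was 0.0355, inside it. With a mean of at least 100 as the filter or TMM scaling the limma value was just inside too (adjusted p = 0.0488 and 0.0481), and the alternatives together gave 0.0472 to 0.545. Marveld3, a membrane protein related to occludin, had 465.2, 455.1 and 406.5 in KC-Tie2 and 385.5, 375 and 327.4 in Control kidneys (1.22-fold, limma adjusted p = 0.199). Ocln itself was at 1-fold, with a 95% interval of 0.874 to 1.15, and the scaffold Tjp1 at 1.04-fold.

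Among 19 adherens junction and desmosome genes, 1 rose, where 0.855% of all genes tested rose. Cdh6, a cadherin of the proximal tubule and of the developing nephron, had 383, 444.3 and 402.8 in KC-Tie2 and 252.1, 242 and 231.4 in Control kidneys. Its 3 KC-Tie2 libraries were all above its Control libraries, at 1.69-fold (log2 fold change 0.76 ± 0.10 SE, limma adjusted p = 0.00742). Cdh6 was also called with any 1 library left out, but not without both uroplakin-poor libraries (0.67, limma adjusted p = 0.125, in a range of 0.00376 to 0.125 over all alternatives). In the authors' deposited table, 3 of the 19 had an FDR under 0.05, against 3.91% of its genes. They were Cdh6 (8.51e-06), Nectin1 (0.0134) and Cdh2 (0.035). Nectin1 was not called by limma, with all KC-Tie2 libraries above all Control libraries (1.33-fold, limma adjusted p = 0.0896). Cdh2 was not called either, with all KC-Tie2 libraries below all Control libraries (0.673-fold, limma adjusted p = 0.0791). Of 20 tested regulators of renal claudins none was called, with 5 at an unadjusted p under 0.05, against 15.3% of all genes. The lowest p-values were those of the transcription factor gene Ovol1 (0.711-fold, limma adjusted p = 0.139) and Casr, the calcium-sensing receptor that lowers paracellular calcium transport in the thick limb (1.14-fold, limma adjusted p = 0.24). Of 12 tested markers of injured tubules 11 were above 0 and none was called, with 5 at an unadjusted p under 0.05, beside the same 15.3%. Prom1 and Krt7 had the lowest p-values of that list (1.46-fold and 1.35-fold, limma adjusted p = 0.0635 and 0.0649). The largest difference in the list was that of Spp1, the gene for osteopontin, with 58913, 81324 and 35940 in KC-Tie2 and 12659, 13480 and 10149 in Control kidneys. The genotypes did not overlap in Spp1, at 4.63-fold with a 95% interval of 2.53 to 8.5 (limma adjusted p = 0.0681, 0.000155 to 0.26 over the alternatives). Lcn2, the gene for lipocalin 2, was at 2.54-fold with overlapping groups (limma adjusted p = 0.134, 0.00511 to 0.687 over the alternatives). In the authors' deposited table, 4 of the 12 had an FDR under 0.05, against 3.91% of its genes. They were Spp1 (1.49e-08), Prom1 (0.000362), Lcn2 (0.00593) and Krt7 (0.0068). The part of tubule injury in any claudin value was not tested.

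Genes whose pattern over the 6 libraries was most like that of the 2 claudins with the smallest p-values were sought among 12561 genes with a mean of at least 100. For Cldn19 these were Zfp933, Fbrs and Herc1, with Pearson r of 0.9974, 0.9955 and 0.9954 on log2 values. For Cldn7 they were 9430015G10Rik, Mrtfb and Nup214, with r of 0.9952, 0.9896 and 0.9896. These are the highest of 12561 values over only 6 libraries, which differ in depth and genotype, and are given as a description. Zfp933, a zinc finger gene, had 374.2, 386.8 and 344.8 in KC-Tie2 and 315.2, 362.6 and 349.1 in Control kidneys, the same order of libraries as Cldn19.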

How the data were processed

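Poly(A)-selected RNA libraries of 3 KC-Tie2 and 3 Control mouse kidneys were analysed from the deposited tables. Columns were matched to samples by library name. The deposited values are a signal, normalized counts per gene. Per the submitters' processing notes, Partek 12.5.0, STAR and DESeq2 were used with the build mm39, and no source used here says which tool did what. Depth was estimated from the spacing of low values; since 68.3% to 71.1% of a library's values below 60 were multiples of that spacing, within 0.01, whole reads were not recovered. A further deposited table holds, per the file headers, the authors' p-value, FDR, ratio and signed fold change (a score, negative where lower) against a group headed WT, and was copied, not retested.

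Values were taken as log2(value + 1). Genes with a mean of at least 10 (17539) were fitted with limma 3.58.1 in R 4.3.3 (eBayes with trend and robust), two-sided, with Benjamini-Hochberg adjustment over all of them. The script was tested on simulated data. Claudins relative to markers were compared by a two-sided exact permutation test. Levels per kilobase used GENCODE M21 transcript lengths, of another build than the counts; promoters are from RefSeq on GRCm38.p6. A gene is called, and said to have risen or fallen, at an adjusted p under 0.05. The members and lists were chosen with earlier results of these data known. Named genes were the 9 claudins, the other claudin genes, Tek, up to 4 called genes of each list or else the 2 with the smallest p, and the 3 genes most like each of the 2 claudins with the smallest p. Some genes that this rule names are not reported here. Ocln, Tjp1, Spp1, Lcn2, Slc5a12, Kit, Nectin1 and Cdh2 were named after their values were seen. Tried as alternatives were other pseudocounts (0.5 and 5), other filters (none, or a mean of 100), TMM or quantile scaling, a block for the replicate number, eBayes without robust, the markers' median, and each library left out. Tables and figures were made in Python 3.11.15 (pandas 2.3.3, matplotlib 3.10.9).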

Additional observations from a re-analysis of the deposited data

How the results depend on the processing

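No claudin of the 9 was called as reported or in any alternative run, and the lowest adjusted p over all of them was 0.105 (limma, Cldn7). The direction held in all 15 alternatives for Cldn4, Cldn7, Cldn10, Cldn16 and Cldn19. Single libraries still moved them. Cldn4 (0.21) was 0.03 without KC-Tie2 replicate 1 or Control replicate 3, and 0.43 and 0.41 without KC-Tie2 replicate 2 and Control replicate 2. Cldn16 (-0.12) was -0.03, -0.05 and -0.29 without Control replicates 3, 1 and 2. Cldn10 (-0.08) was -0.03 without KC-Tie2 replicate 1 and -0.02 without Control replicate 2. Cldn19 (0.24) ran from 0.11, without Control replicate 1, to 0.33, and Cldn7 (0.30) from 0.23 to 0.43. The direction turned for claudins near 0, and the cause was not tested. Leaving out 1 library gave log2 fold changes of -0.11 to 0.07 for Cldn1, -0.04 to 0.11 for Cldn2, -0.14 to 0.10 for Cldn3 and -0.12 to 0.10 for Cldn8. For Cldn8 the value was 0.004 with TMM scaling and 0.001 with quantile normalization. Without both uroplakin-poor libraries it was 0.04 for Cldn1 and 0.15 for Cldn3. Relative to markers, Cldn19 ran from -0.11 to 0.03 and Cldn4 from -0.25 to 0.08 with 1 library left out, and Cldn4 was at 0.002 without both uroplakin-poor libraries.

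Called genes in all numbered 297 and, with 1 library left out, 48 to 682: 70, 48 and 682 without KC-Tie2 replicates 1, 2 and 3, and 51, 525 and 54 without Control replicates 1, 2 and 3. They numbered 581 with the replicate block and 36 without both uroplakin-poor libraries (fewer samples). Other tight junction genes called numbered 0 (6 at an unadjusted p under 0.05), 1 with a mean of at least 100, 1 with TMM scaling and 0 to 1 with 1 library left out. Segment markers called numbered 7 of 74, 1 to 21 with 1 library left out, 15 with the replicate block and 0 without both uroplakin-poor libraries, where 21 had an unadjusted p under 0.05 by limma. Pairs of claudin and markers without overlap numbered 3 of 10, 1 with the median of the markers and 3 to 6 with 1 library left out, where fewer samples overlap less readily. In 6 pairs the replicate block gave 1 direction at all 3 numbers. Same-numbered samples showed little shared deviation (correlations of 0.18, -0.10 and 0.02). With 3 samples per genotype and no label on pairing, these values cannot settle whether the numbers pair the samples. The block changed no claudin call.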
